A study of Mus musculus with 43 samples.

Results

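The nuclear genes of the respiratory chain and ATP synthase were followed through antigen-specific CD4 T cells of mice that met antigen at different strengths and for different times. The members are all genes whose symbol begins with Nduf, Sdh, Uqcr, Cox4, Cox5, Cox6, Cox7, Cox8 or Atp5, with 1 probe set per gene. A total of 93 of the 22180 genes measured met this rule. They divide into 42 genes of complex I (Nduf), 8 of complex II (Sdh), 8 of complex III (Uqcr), 17 of complex IV (Cox) and 18 of complex V, the ATP synthase (Atp5). By role, 70 encode structural subunits used broadly across tissues, 13 assembly factors, 8 isoforms known mainly from other tissues such as muscle or testis, and 2 are pseudogenes. The subunits that mitochondrial DNA encodes are not among the members, and 9 symbols with these prefixes, Cox6c, Ndufb2, Ndufs6 and Uqcr10 among them, were only on probe sets shared between genes and were not analysed here.

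Complex I takes electrons from NADH and complex II, which is also an enzyme of the tricarboxylic acid cycle, takes them from succinate. Ubiquinone carries them to complex III and cytochrome c carries them on to complex IV, which reduces oxygen. Complexes I, III and IV pump protons out of the mitochondrial matrix, complex II pumps none, and the ATP synthase makes ATP as the protons flow back. In T cells this machinery is known to serve resting and memory cells, while activated effectors also rely heavily on glycolysis.

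The donor cells were CD45.1+ Rag2o/o CD4+ T cells with the transgenic AND receptor, which recognises a moth cytochrome c peptide. They were placed in iMCC mice, where doxycycline in the drinking water switches on the peptide in dendritic cells. An anti-CD40 antibody given the day before transfer activated those dendritic cells, and doxycycline at 100 µg/ml was given from then to day 3. The none group was then taken off the drug, the low group was moved to 10 µg/ml, and the intermediate (int) group stayed on 100 µg/ml. The off group kept 100 µg/ml until day 10 and none after. The high group was in cMCC mice, which make the peptide constitutively in MHC-II+ cells, and these mice had no doxycycline. The naive group was in recipients without a transgene, which had no doxycycline, and was sorted 3 days after transfer. All other cells were sorted on day 10 or day 30 as CD4+CD90.2+CD45.1+ cells. The samples number 5 per group, except 4 each in the int and high groups of day 10, which gives 43 arrays in 9 groups. Day 30 was a separate series of sorts without cMCC mice, in which the labels state that these T cells die before then, and time and sort series therefore cannot be told apart. Whether a sample came from 1 animal or a pool is not stated, so p-values measure only the spread between these samples, which may be partly technical.

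The values are log2 signals as the authors deposited them. Array medians ran from 3.28 to 3.44. Differences are log2 fold changes ± SE from limma fitted over all 22180 genes and all 43 arrays, and a gene is called when its adjusted p (Benjamini-Hochberg) is below 0.05. Levels of different genes are not compared, since each probe set has its own response. Cd4 had group means of 9.12 to 10.01 and Thy1, which encodes CD90, of 10.12 to 11.20, while Cd8a lay at 2.99 to 3.31. Markers of other cells differed between arrays: Cd79a of B cells ran from 3.95 to 7.68 over the naive arrays, and S100a8 of neutrophils from 5.11 to 10.70 there. In these bulk samples, fewer cells of a type and less RNA per cell cannot be told apart.

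The promoters of 7 members are shown because these genes were called higher on day 30 and either repeat across the day comparisons or carry a match of a motif known from respiratory chain genes. Each is the 250 bases before a transcript start that RefSeq (GRCm38.p6) lists for the gene, 5′ to 3′ on the gene's strand, with motif matches in capitals. For Cox7a2, Ndufs7 and Ndufa3 that start lies inside the gene's annotated span. Positions are Cox7a2 chr9:79759854-79760103 (minus strand), Ndufa3 chr7:3617123-3617372 (plus strand), Ndufa6 chr15:82354292-82354541 (minus strand), Ndufs7 chr10:80249199-80249448 (plus strand), Ndufa11 chr17:56717512-56717761 (plus strand), Atp5k chr5:108434400-108434649 (minus strand) and Ndufb7 chr8:83566508-83566757 (plus strand).
Cox7a2: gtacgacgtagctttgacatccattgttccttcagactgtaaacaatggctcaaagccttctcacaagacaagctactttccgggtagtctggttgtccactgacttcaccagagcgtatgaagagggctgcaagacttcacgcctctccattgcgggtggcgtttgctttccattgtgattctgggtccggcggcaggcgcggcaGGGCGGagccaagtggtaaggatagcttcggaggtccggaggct
Ndufa3: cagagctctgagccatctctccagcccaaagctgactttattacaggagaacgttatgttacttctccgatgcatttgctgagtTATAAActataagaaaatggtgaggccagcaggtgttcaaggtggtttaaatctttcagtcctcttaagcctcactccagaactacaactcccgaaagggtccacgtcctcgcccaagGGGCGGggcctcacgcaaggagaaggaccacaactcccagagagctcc
Ndufa6: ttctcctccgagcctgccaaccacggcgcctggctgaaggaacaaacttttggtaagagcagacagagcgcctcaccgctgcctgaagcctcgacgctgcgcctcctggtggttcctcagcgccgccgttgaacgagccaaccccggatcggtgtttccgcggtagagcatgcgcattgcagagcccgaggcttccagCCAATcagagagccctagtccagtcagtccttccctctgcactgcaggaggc
Ndufs7: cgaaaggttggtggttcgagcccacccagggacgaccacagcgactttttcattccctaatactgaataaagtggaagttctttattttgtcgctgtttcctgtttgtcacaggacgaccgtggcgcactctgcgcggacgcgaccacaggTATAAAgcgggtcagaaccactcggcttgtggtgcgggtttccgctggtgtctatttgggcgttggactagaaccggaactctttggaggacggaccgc
Ndufa11: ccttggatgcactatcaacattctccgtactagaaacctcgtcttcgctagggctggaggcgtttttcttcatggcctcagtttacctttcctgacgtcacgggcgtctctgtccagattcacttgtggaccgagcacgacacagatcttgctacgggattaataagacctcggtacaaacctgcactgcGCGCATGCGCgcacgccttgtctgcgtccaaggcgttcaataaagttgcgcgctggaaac
Atp5k: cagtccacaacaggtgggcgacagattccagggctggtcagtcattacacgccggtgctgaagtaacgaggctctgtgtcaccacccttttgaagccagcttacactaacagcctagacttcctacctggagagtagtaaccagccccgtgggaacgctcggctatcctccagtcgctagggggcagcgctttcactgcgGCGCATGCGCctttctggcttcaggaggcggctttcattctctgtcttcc
Ndufb7: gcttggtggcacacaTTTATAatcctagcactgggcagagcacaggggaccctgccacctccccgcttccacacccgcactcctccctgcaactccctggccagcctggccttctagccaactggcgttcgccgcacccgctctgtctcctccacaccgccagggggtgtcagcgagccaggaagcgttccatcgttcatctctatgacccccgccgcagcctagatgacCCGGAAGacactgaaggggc
The capitals mark GGGCGG (GC box) in Cox7a2 and Ndufa3, CCAAT in Ndufa6, TATAAA on the plus strand in Ndufa3 and Ndufs7 and on the minus strand in Ndufb7, CCGGAAG (the ETS core bound by NRF2/GABP) in Ndufb7, and GCGCA, any base, then GCGC (NRF1, nuclear respiratory factor 1) in Ndufa11 and Atp5k. Both strands were searched, and matches of different motifs did not overlap in these windows. Of all 93 members, 76 matched the promoter table, with 81 windows. The NRF1 letters stood in 16.0% of the members' windows against 3.7% of all 32851 windows, or 5.2% of those of protein-coding genes. The ETS letters stood in 19.8% against 6.9%, or 9.0% of protein-coding ones. The GC box stood in 42.0% against 32.7%, but in 42.6% of protein-coding windows, close to the members' share. CCAAT stood in 39.5% against 33.8% (35.4% of protein-coding windows), TATAAA in 9.9% against 12.4% (11.6%) and the YY1 letters AAGATGGCG in 1.2% against 0.6% (0.7%). Of the 19 members called higher on day 30 in at least 1 comparison, 14 had a window: 2 held the NRF1 letters (14.3%) and 1 the ETS letters (7.1%). Among 51 windows of other structural members the shares were 19.6% and 21.6%. A match describes the letters only, and binding was not measured.

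Averaged over the 93 members, each array gave 1 module mean. The naive arrays stood at 7.29, 6.98, 7.24, 7.38 and 6.95, and the day 10 none arrays at 6.80, 6.91, 6.93, 7.24 and 7.11. Day 10 low arrays stood at 7.13, 7.12, 7.11, 7.13 and 7.02, int arrays at 6.96, 7.01, 6.83 and 7.09, and high arrays at 7.25, 7.21, 7.33 and 6.95. The lowest group means, 6.97 ± 0.11 (SD, n = 4) in int and 7.00 ± 0.17 (n = 5) in none, thus belonged to day 10, and the high group at 7.18 ± 0.16 (n = 4) lay near the naive group at 7.17 ± 0.19 (n = 5). On day 30 the none arrays stood at 7.20, 7.39, 7.10, 7.26 and 7.12, the low arrays at 7.19, 7.31, 7.28, 7.28 and 7.36, the int arrays at 7.14, 7.19, 7.19, 7.18 and 7.26, and the off arrays at 7.19, 7.24, 7.21, 7.26 and 7.15. The 4 group means of day 30 lay between 7.19 and 7.28, closer together than those of day 10.

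**Figure D1:**
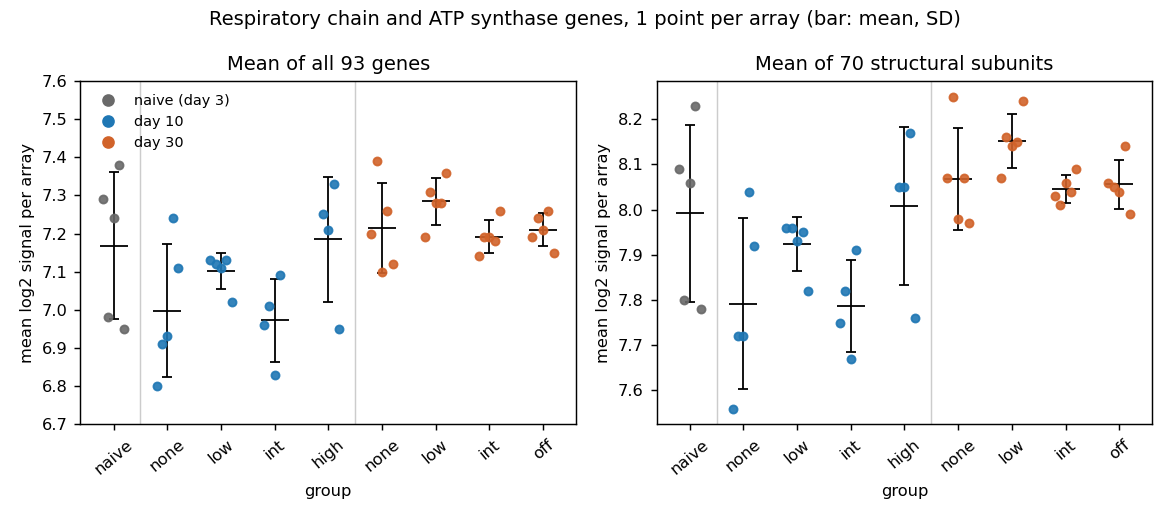
Mean log2 signal of the 93 members (left) and of the 70 structural subunits (right) on each array, by group, with the mean and SD of the group. All low and int arrays of day 30 lie above all arrays of the same dose on day 10, whereas the none arrays of the 2 days overlap.

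Day 30 was compared with day 10 at each antigen dose, in 3 comparisons that share no array. Complexes I, III, IV and V had higher mean levels on day 30 at every dose, with small differences spread over many genes, and complex II had a lower one. The limma fit called 13 members higher and 1 lower without antigen, 9 higher with low antigen and 6 higher with int antigen. Of all genes, 1.51%, 0.866% and 0.347% were called higher, against 14.0%, 9.68% and 6.45% of the members, and 1.93%, 2.00% and 0.365% were called lower. Both directions together came to 3.43%, 2.87% and 0.712% of all genes. The single member called lower without antigen was Cox6a2, the heart and muscle isoform of a complex IV subunit (-0.72 ± 0.21, adjusted p = 0.0485 in limma). The module mean differed by 0.22 ± 0.09 (SE) without antigen, 0.18 ± 0.03 with low and 0.22 ± 0.06 with int antigen. Taken on each array as the median over members, the difference was 0.38 without antigen and 0.42 with low antigen, and with low antigen it was 0.12 after centring each array. The median member's fold change was 0.24, 0.19 and 0.22, beside 0.024, 0.034 and 0.023 over all genes. Since most members are bright and bright genes as a class behaved otherwise, the same was read among the 3918 genes with a mean of at least 6. There 37.2%, 31.8% and 36.9% of all genes had a positive difference, against 81.5%, 92.3% and 87.7% of the 65 bright members, and 3.32%, 1.86% and 1.53% were called higher, against 20%, 13.8% and 9.23% of the members. Over all 3 comparisons 55 members (59.1%) had a positive difference each time, 47 of them structural, beside 27.6% of all genes, and 7 members had a negative one each time.

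These counts depend on single arrays. Without antigen the count of 14 became 4 when none replicate 1 of day 10 was left out, 7 without its replicate 2 or 3, and 8, 7 or 9 without day 30 replicate 1, 2 or 5. With low antigen the count of 9 became 3, 4, 2 or 4 without day 10 replicate 1, 2, 3 or 5, and 4 or 3 without day 30 replicate 1 or 4. With int antigen the count of 6 became 2 without day 10 replicate 1 or 3, and 3 or 2 without day 30 replicate 1 or 3. Centring each array on its median left 3 calls with low and 2 with int antigen. Fitting only the arrays compared left 5 without antigen, and leaving out the 4 arrays that stood apart in earlier results of these data gave 25. Markers of other cells moved as well: S100a8 (-3.12, adjusted p = 0.0191 in limma) and S100a9 (-2.86, adjusted p = 0.0117) of neutrophils were lower on day 30 without antigen, and Cst3 of the same list was higher at all 3 doses (0.99, 0.80 and 1.01, with adjusted p of 0.0132, 0.0483 and 0.0376). Of the T cell markers, Thy1 was lower without antigen (-0.40, adjusted p = 0.0292) and with low antigen (-0.43, adjusted p = 0.019), and Cd3e without antigen (-0.49, adjusted p = 0.0141). Ncr1 of NK cells (0.52, adjusted p = 0.0291) was higher without antigen and Cd22 of B cells (1.46, adjusted p = 0.0115) with low antigen. No other marker of their lists was called there. Without antigen, Klrb1c, Cd8a and Cd8b1 had means of 4.26, 3.16 and 4.02 on day 10 and 4.09, 3.23 and 3.87 on day 30. With low antigen, Cd79a, Cd79b and H2-Ab1 had means of 3.37, 3.31 and 3.09 on day 10 and 3.43, 3.27 and 3.04 on day 30. The mean of the 9 measured myeloid markers ran from 4.07 to 5.14 over the day 10 none arrays and from 3.61 to 4.32 over those of day 30, from 4.13 to 4.80 and 3.97 to 4.26 with low antigen, and from 3.87 to 4.45 and 3.90 to 4.49 with int antigen. Their part in the result was not tested.

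Of the 19 members called higher on day 30 in at least 1 comparison, 3 were called in all 3, and only 17 of all genes were. Cox7a2, the broadly expressed isoform of a small complex IV subunit, stood at 9.05, 9.46, 9.12, 9.69 and 9.66 on day 10 without antigen and at 10.36, 10.27, 10.01, 9.91 and 10.00 on day 30. With low antigen it went from 9.54, 9.76, 9.60, 9.41 and 9.35 to 10.01, 10.24, 10.53, 10.10 and 10.26, and with int antigen from 9.25, 9.25, 9.13 and 9.43 to 10.00, 10.18, 10.09, 10.11 and 10.10. In each pair all day 30 arrays lay above all day 10 arrays. The differences were 0.71 ± 0.13 (adjusted p = 0.00164 in limma), 0.70 ± 0.13 (adjusted p = 0.0018) and 0.83 ± 0.14 (adjusted p = 0.00137). Its calls held in all 3 comparisons when any array was left out and under all 9 other settings. The gene lies on chromosome 9 at 79755241 to 79771422 (GRCm38.p6).

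Ndufa3, an accessory subunit of the membrane arm of complex I, stood at 9.21, 9.28, 9.29, 9.81 and 9.84 on day 10 without antigen and at 10.11, 10.57, 9.98, 10.05 and 10.25 on day 30. With low antigen its arrays went from 9.77, 9.70, 9.61, 9.63 and 9.52 to 10.00, 10.25, 10.24, 10.39 and 10.20, and with int antigen from 9.50, 9.54, 9.24 and 9.58 to 9.95, 10.19, 10.14, 10.02 and 10.31. Again no array of day 10 reached those of day 30 at the same dose. The differences were 0.71 ± 0.13, 0.57 ± 0.13 and 0.66 ± 0.13, with adjusted p of 0.00116, 0.00818 and 0.00901 in limma. Leaving out 1 array ended the call with int antigen once, at an adjusted p of 0.0605. The gene lies on chromosome 7 at 3617347 to 3620165.

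Atp5mpl, a small proteolipid subunit of the ATP synthase membrane part, stood at 8.93, 9.45, 9.73, 9.87 and 9.68 on day 10 without antigen and at 10.08, 10.43, 10.19, 10.06 and 9.98 on day 30. With low antigen the arrays went from 9.72, 9.92, 9.60, 10.06 and 9.09 to 10.26, 10.16, 10.33, 10.24 and 10.16, and with int antigen from 9.42, 9.55, 9.20 and 9.77 to 10.28, 10.03, 10.33, 9.96 and 10.09. The groups of the 2 days did not overlap at any dose. The differences were 0.62 ± 0.15, 0.55 ± 0.15 and 0.65 ± 0.16, with adjusted p of 0.0146, 0.0303 and 0.0318 in limma, and the call was lost in 1 of 10, 6 of 10 and 5 of 9 fits that left out an array. The gene lies on chromosome 12 at 111961374 to 111967009.

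**Figure D2:**
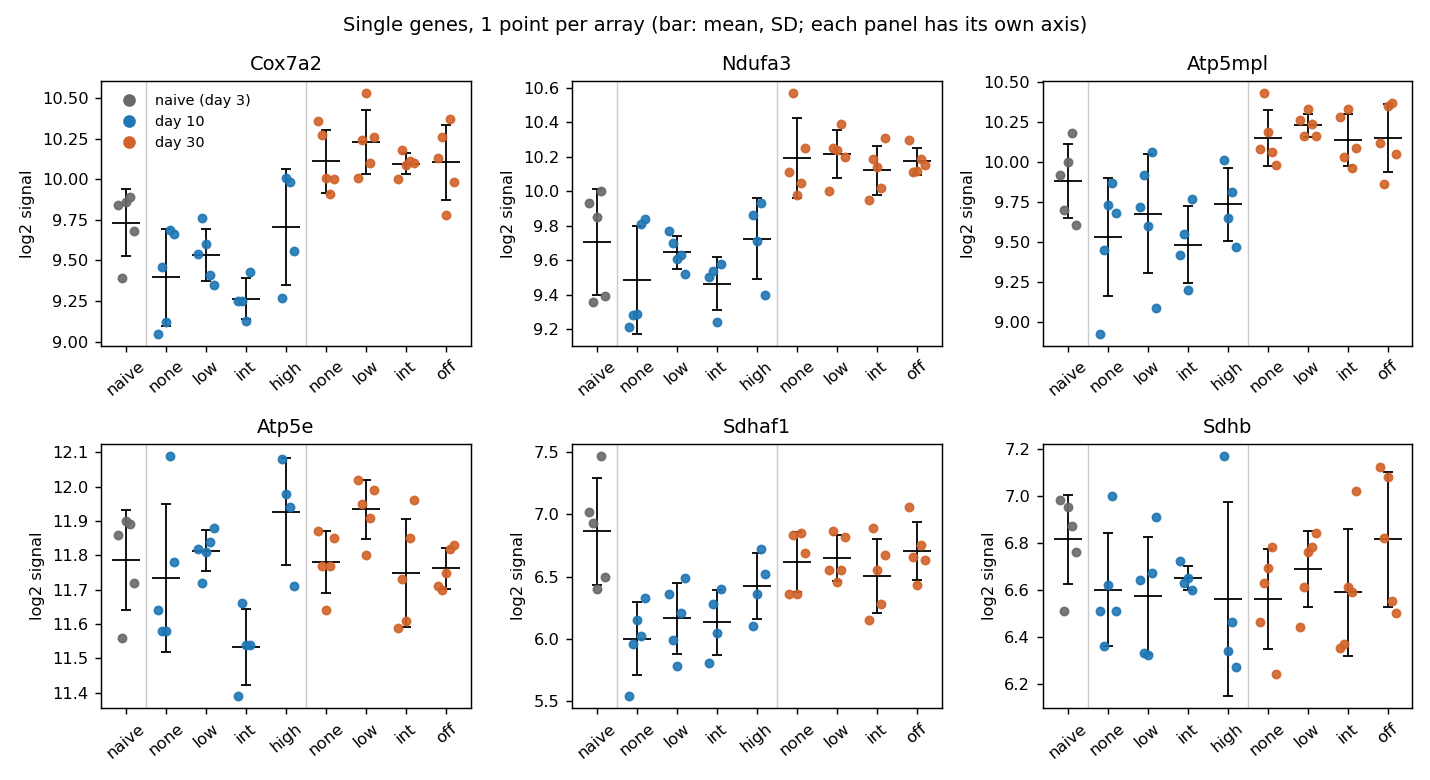
Log2 signal of 6 members on each array, by group, with the mean and SD of the group. Cox7a2, Ndufa3 and Atp5mpl separate the days at each of the 3 doses measured on both, Atp5e separates high from int on day 10, Sdhaf1 is highest in naive cells, and Sdhb shows overlapping groups.

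Complex I held 12 of the 19 members called higher, and it holds 42 of all 93 members. Of its 6 measured core subunits, which carry the flavin, the iron-sulfur clusters and the path to ubiquinone, 1 was called, and of its 27 accessory subunits 11 were. The class means differed between the days by 0.29 ± 0.10 (SE), 0.32 ± 0.05 and 0.41 ± 0.07 for the core and 0.38 ± 0.10, 0.28 ± 0.05 and 0.28 ± 0.09 for the accessory subunits without, with low and with int antigen. Whether the classes differ was not tested. The core subunit was Ndufs7, which holds the iron-sulfur cluster nearest ubiquinone. It stood at 6.13, 5.96, 6.49, 6.64 and 6.53 on day 10 without antigen and at 6.82, 7.11, 6.81, 7.17 and 6.99 on day 30, with no overlap (0.63 ± 0.16, adjusted p = 0.0215 in limma), and the int groups did not overlap either (0.69 ± 0.17, adjusted p = 0.0379). Ndufa6, an accessory subunit of the LYR protein family, went from 9.28, 9.05, 9.43, 9.55 and 9.45 to 10.26, 9.95, 10.33, 9.84 and 10.23 without antigen, again without overlap (0.77 ± 0.15, adjusted p = 0.00199). It was also called with low antigen, where the days overlapped (0.56 ± 0.15, adjusted p = 0.0258). Ndufb9, another LYR protein, went from 8.05, 8.32, 8.84, 9.06 and 8.60 to 9.33, 9.34, 9.25, 9.29 and 9.41 (0.75 ± 0.17, adjusted p = 0.00846), and was called with low antigen too (0.64 ± 0.17, adjusted p = 0.0265). The without-antigen calls of Ndufa6 and Ndufb9 held when any array was left out and under every other setting. The other accessory subunits were called at 1 dose each: Ndufa9, Ndufa10, Ndufa11, Ndufb8 and Ndufb10 without antigen (0.52 to 0.77), Ndufb5 and Ndufb7 with low antigen (0.61 and 0.56) and Ndufa2 with int antigen (0.72). The call of Ndufa11 was lost when its 2 probe sets were averaged.

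Complex III gave Uqcrb, a small subunit at the ubiquinone pocket, which went from 7.69, 8.07, 8.33, 8.24 and 8.23 to 8.58, 9.17, 8.88, 8.63 and 8.74 without antigen (0.69 ± 0.18, adjusted p = 0.0222 in limma). Complex IV gave Cox7a2, Cox7b without antigen (0.54 ± 0.15, adjusted p = 0.0415) and, with int antigen, Cox4i1, the broadly expressed isoform of its largest nuclear subunit. The call of Cox7b was lost when its 2 probe sets were averaged. Cox4i1 stood at 9.55, 9.81, 9.97 and 9.86 on day 10 with int antigen and at 10.22, 10.29, 10.38, 10.23 and 10.56 on day 30 (0.54 ± 0.13, adjusted p = 0.0315), without overlap. Complex V gave Atp5mpl and, with low antigen, the small membrane subunits Atp5k (0.35 ± 0.09, adjusted p = 0.0243) and Atp5md (0.42 ± 0.12, adjusted p = 0.0427). The catalytic head of the ATP synthase had no called subunit. Its beta subunit, Atp5b, differed by 0.30 ± 0.11, 0.24 ± 0.11 and 0.15 ± 0.12, with adjusted p of 0.12, 0.229 and 0.684, and its alpha subunit, Atp5a1, by -0.18 ± 0.11, 0.01 ± 0.11 and 0.05 ± 0.12.

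**Figure D3:**
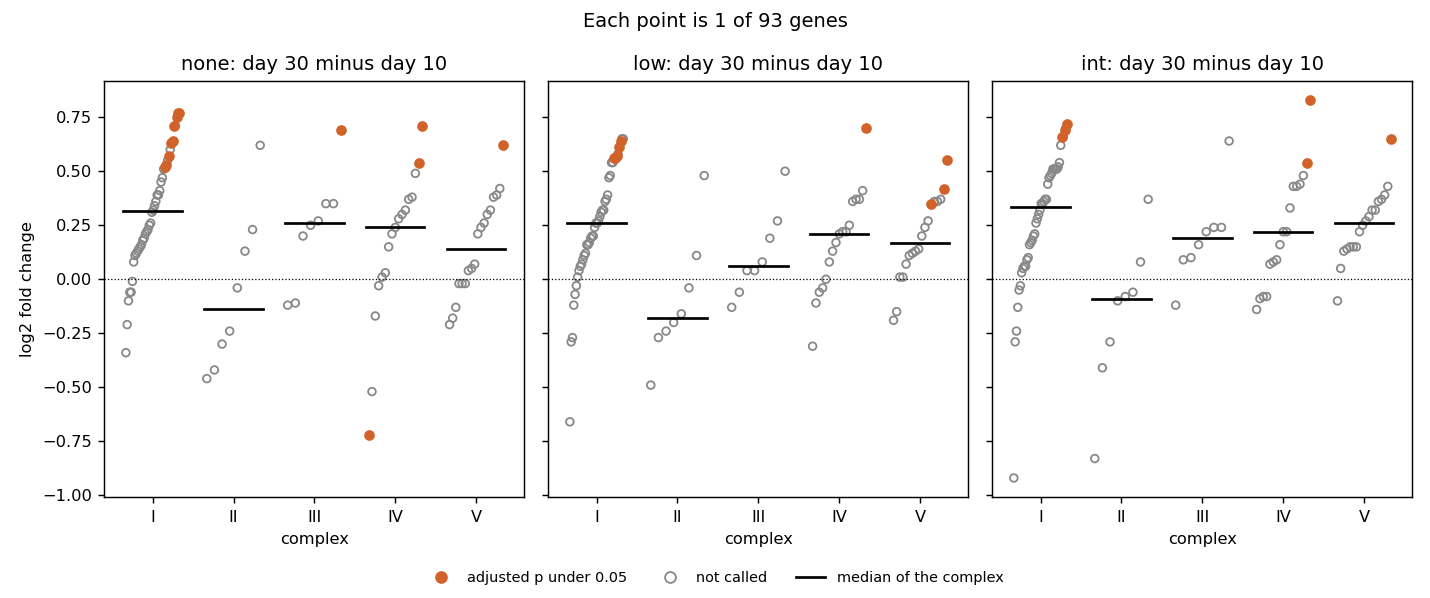
Log2 fold change of day 30 over day 10 for each of the 93 members, by complex, without antigen (left), with low (middle) and with int antigen (right). Filled points are called in limma, and black bars are medians of each complex, which lie above 0 for complexes I, III, IV and V and below 0 for complex II in all 3 panels.

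Taken per complex over structural subunits, the mean of complex I differed between the days by 0.37 ± 0.10 (SE) without antigen, 0.29 ± 0.05 with low and 0.31 ± 0.08 with int antigen, and its array means did not overlap between the days at any dose. Complex IV differed by 0.35 ± 0.14, 0.27 ± 0.04 and 0.33 ± 0.05, complex III by 0.28 ± 0.12, 0.15 ± 0.04 and 0.20 ± 0.04, and complex V by 0.15 ± 0.08, 0.21 ± 0.04 and 0.26 ± 0.05. For complexes IV and V the arrays of the days overlapped only without antigen. For complex III they overlapped without antigen and with low antigen. Complex II differed by -0.12 ± 0.13, -0.22 ± 0.18 and -0.13 ± 0.10, with overlapping arrays each time.

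Complex II has 4 structural subunits, and limma called none of them, nor any of the 4 Sdh assembly factors, in the day comparisons. Sdha, the flavoprotein that oxidises succinate, differed by -0.24 ± 0.15, -0.27 ± 0.15 and -0.10 ± 0.16. Sdhb, which carries the iron-sulfur clusters, differed by -0.04 ± 0.17, 0.11 ± 0.17 and -0.06 ± 0.18. The membrane anchors Sdhc (-0.42 ± 0.32, -0.24 ± 0.32 and -0.08 ± 0.34) and Sdhd (0.23 ± 0.29, -0.49 ± 0.29 and -0.29 ± 0.30) were not called either, and their arrays scattered: on day 30 with int antigen Sdhc stood at 6.69, 7.19, 6.97, 7.02 and 5.30. Whether complex II differs from the other complexes in its response was not tested.

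**Figure D4:**
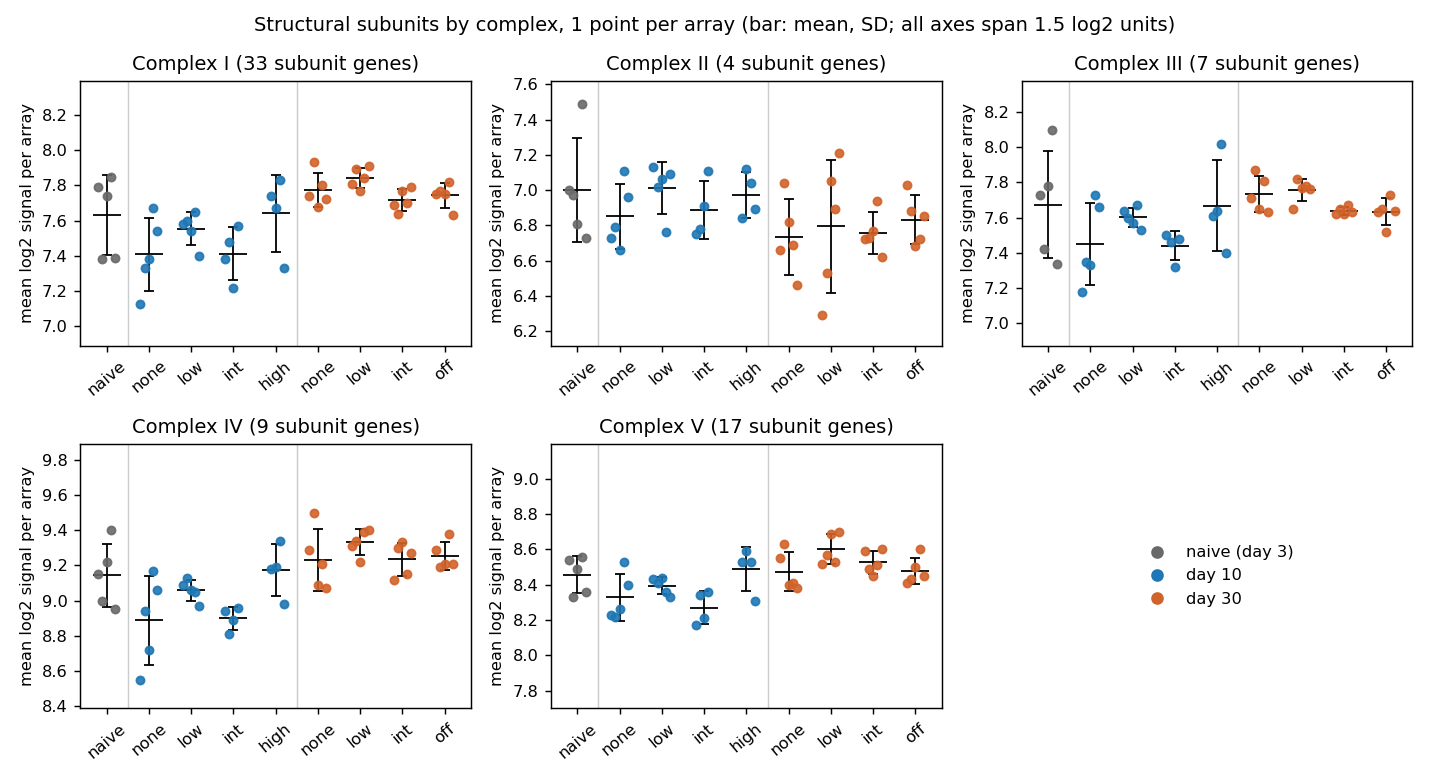
Mean log2 signal of the structural subunits of each complex on each array, by group, with the mean and SD of the group. Day 30 arrays of complexes I and IV lie mostly above those of the none, low and int groups of day 10. The high group of day 10 overlaps the day 30 groups, and complex II shows no such step.

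Over the 9 group means, the complex means moved together except for complex II. Pearson's r was 0.99 between complexes I and IV, 0.96 between IV and V, 0.94 between I and V and 0.93 between I and III, and it lay between -0.46 and -0.21 between complex II and the others. After subtracting group means, the same r over 43 arrays was 0.64 to 0.85 among complexes I, III, IV and V and 0.34 to 0.49 with complex II. These r describe points that share each array's labelling and scaling.

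Against naive cells, few members were called. On day 10 without antigen 3 were lower and 0 higher in limma (3.23% lower, against 1.41% of all genes lower, 1.90% higher and 3.30% either way), and 23 had an unadjusted p under 0.05. Sdhaf1, which helps put iron-sulfur clusters into complex II, stood at 7.02, 6.93, 6.40, 7.47 and 6.50 in naive cells and at 5.54, 5.96, 6.15, 6.02 and 6.33 on day 10 without antigen. The groups did not overlap, and the difference (-0.86 ± 0.19, adjusted p = 0.0037) held when any array was left out. It was lost at an adjusted p of 0.061 in 1 of 9 other settings. Ndufs8, a core iron-sulfur subunit of complex I (-0.76 ± 0.22, adjusted p = 0.0369), and Ndufc2, an accessory one (-0.66 ± 0.19, adjusted p = 0.0451), were lower with overlapping arrays. The count of 3 became 6 without none replicate 4, 5 without naive replicate 2, and 1 without none replicate 1, 2 or 3 or naive replicate 1, 3 or 4. It was 0 when only these groups were fitted. The module mean differed by -0.17 ± 0.12 (SE), and among bright genes 9.2% of members had a positive difference against 56.6% of all. Of the bright members 4.62% were called lower, against 3.19% of all bright genes. Without 4 arrays that stood apart in earlier results of these data (naive replicates 3 and 4, day 10 none replicate 4 and high replicate 2), 1 call was left.

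With int antigen on day 10, 3 members were lower than in naive cells and 0 higher (3.23% lower, against 1.01% of all genes lower, 2.14% higher and 3.15% either way). These were Sdhaf1 (-0.73 ± 0.20, adjusted p = 0.0316 in limma), Cox4i1 (-0.45 ± 0.13, adjusted p = 0.0402) and Cox6b2, the testis isoform of a complex IV subunit (-0.65 ± 0.17, adjusted p = 0.0174). Cox6b2 stood at 4.13, 3.25, 3.50, 4.12 and 3.24 in naive cells and at 3.09, 3.11, 2.90 and 2.91 with int antigen, near the dim end of the scale. Among genes with a mean of at least 6, the shares called lower were 3.08% of members and 2.12% of all. The count became 6 without naive replicate 2, 0 without naive replicate 1 or 4, and 1 without int replicate 1, 3 or 4. It was 0 when only these groups were fitted or without the 4 arrays, 1 after centring, 5 with array weights and 7 after quantile normalization. In the high group 0 members were called against naive cells, beside 4.82% of all genes and with 5 members at an unadjusted p under 0.05, and the count was 2 without high replicate 5. It was 1 after quantile normalization, without a variance trend or among genes with a mean of at least 4. The day 30 none group had 4 members higher (4.30% against 1.98% of all genes) and 1 lower (1.08% against 2.35%) than naive cells, beside 4.33% of all genes either way. Among genes with a mean of at least 6, 6.15% of members and 5.18% of all were called higher, and 1.54% and 5.36% lower. Ndufs7 stood at 6.60, 6.20, 6.74, 6.01 and 6.29 in naive cells and was higher by 0.61 ± 0.16 (adjusted p = 0.0181), with no overlap. Ndufa7 (0.69 ± 0.20, adjusted p = 0.0326), Ndufa3 (0.49 ± 0.13, adjusted p = 0.0168) and Ndufa6 (0.49 ± 0.15, adjusted p = 0.0465), all accessory subunits of complex I, were higher too. Atp5a1, the alpha subunit of the ATP synthase head, was lower: it stood at 9.85, 9.47, 9.85, 9.73 and 9.56 in naive cells and at 9.45, 9.42, 9.13, 9.41 and 9.25 on day 30 (-0.36 ± 0.11, adjusted p = 0.0487). The count of 5 became 2, 2, 3 or 3 without none replicate 2, 3, 4 or 5, and 1, 3, 3 or 2 without naive replicate 2, 3, 4 or 5. It was 0 with array weights or when only these groups were fitted, and 3 after centring or without a variance trend. Naive cells also differ from the others in time after transfer and in recipient genotype and treatment, which cannot be told apart here. Markers of other cells differed from naive cells too, most of the called ones being lower. Cd79a of B cells differed by -2.12 on day 10 without antigen (adjusted p = 7.92e-05), -2.14 with high antigen (adjusted p = 8.83e-05) and -1.84 on day 30 without antigen (adjusted p = 0.000806), and was lower with int antigen as well (adjusted p = 0.000526). H2-Ab1 differed by -2.01, -1.92, -2.07 and -1.77 for day 10 none, int and high and day 30 none, and Cd79b by -2.05, -2.42, -2.42 and -1.97, all called, while Cd22 was higher with int antigen (1.81, adjusted p = 0.00106). S100a8 was lower in the int group (-2.93, adjusted p = 0.0385) and in the day 30 none group (-4.56, adjusted p = 0.000148). Klrb1c of NK cells was higher with high antigen (1.63, adjusted p = 8.83e-05 in limma), alone in its list. Of the T cell markers, Thy1 was higher on day 10 without antigen (0.47, adjusted p = 0.00611) and lower with high antigen (-0.60, adjusted p = 0.000279). Cd4 (0.72, adjusted p = 0.00545) and Cd3e (0.49, adjusted p = 0.00977) were higher with high antigen. Their part in these results was not tested.

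Among antigen doses on day 10, constitutive high antigen was the one condition with called members. Against none, 4 members were higher and 0 lower (4.30% higher, against 2.77% of all genes higher, 2.48% lower and 5.25% either way). Among genes with a mean of at least 6, 6.15% of members were called higher, about the same as the 6.23% of all such genes. Cox6b1, the broadly expressed complex IV subunit on the intermembrane side, stood at 8.17, 8.94, 8.78, 9.57 and 9.41 in none and at 9.50, 9.75, 9.73 and 9.29 in high (0.59 ± 0.17, adjusted p = 0.0328 in limma). Ndufc2 (0.68 ± 0.21, adjusted p = 0.039), Cox5a (0.46 ± 0.14, adjusted p = 0.0459) and Ndufa1 (0.47 ± 0.14, adjusted p = 0.0471) were higher as well, and all 4 overlapped between the groups. Fitting only these groups ended all 4 calls, quantile normalization left 1 and centring 2, and leaving out the 4 arrays that stood apart gave 7. The count became 10 without none replicate 4, 9 without high replicate 5, and 0 without high replicate 2, 3 or 4 or none replicate 1, 2 or 3. In the module mean, none replicate 4 (7.24) was the highest none array and high replicate 5 (6.95) the lowest high array. The module mean differed by 0.18 ± 0.11 (SE).

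Against int antigen, 4 members were higher with high antigen and 0 lower (4.30% higher, against 1.40% of all genes higher, 1.59% lower and 2.99% either way). Among genes with a mean of at least 6, the shares called higher were 6.15% of members and 2.37% of all. Atp5e, the epsilon subunit in the central stalk of the ATP synthase, stood at 11.39, 11.66, 11.54 and 11.54 in int and at 12.08, 11.98, 11.94 and 11.71 in high. Every high array lay above every int array, and the difference (0.40 ± 0.09, adjusted p = 0.00362 in limma) held when any array was left out and under every other setting. Cox5a stood at 8.73, 8.54, 8.75 and 8.71 in int and at 9.31, 9.29, 9.38 and 8.78 in high, also without overlap (0.51 ± 0.15, adjusted p = 0.0493). Ndufa12, an accessory subunit of complex I (0.92 ± 0.23, adjusted p = 0.0131), and Ndufa1 (0.54 ± 0.15, adjusted p = 0.0365) overlapped between the groups. The count became 9 without high replicate 5, 2 without high replicate 2, 3 or 4, and 1 without int replicate 1 or 3. It was 1 when only these groups were fitted and 2 after centring. The 2 high antigen comparisons share their high arrays. The high cells also came from another recipient strain and from mice without doxycycline, so antigen dose, strain and drug cannot be told apart. The myeloid marker mean ran from 4.23 to 4.56 over the high arrays. Thy1, the sort marker CD90, was lower in the high group than in none (-1.07, adjusted p = 4.19e-09) and than in int (-0.94, adjusted p = 5.86e-07). Of the other T cell markers, Cd3g was higher in high than in none (0.34, adjusted p = 0.00125 in limma). Ptprc was lower in high than in int (-0.33, adjusted p = 0.0365). Cd4 and Cd3e had means of 9.46 and 11.08 in none, 9.75 and 11.32 in int, and 10.01 and 11.44 in high. With high antigen Cst3 was higher than in none (0.86, adjusted p = 0.03) and than in int (0.94, adjusted p = 0.0326), and Klrb1c of NK cells than in none (1.60, adjusted p = 0.000141). The other markers of the Klrb1c list, Ncr1, Cd8a and Cd8b1, were not called against none. Their means were 2.77, 3.16 and 4.02 in none and 2.90, 3.14 and 3.85 in high. The part of all these markers in the result was not tested. Their part in the result was not tested.

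Low and int antigen left no called member against none on either day. On day 10 limma called 0 of 93 for low against none (0.00451% of all genes), with 4 members at an unadjusted p under 0.05, and 0 for int against none (1.24%), with 4. On day 30 it called 0 for low (0.654%), with 8, 0 for int (2.21%), with 9, and 0 for off (0.266%), with 8. Likewise 0 were called for int against low on day 10 (0.541%, 7 unadjusted) and day 30 (0.546%, 3), and 0 for off against int (0.464%, 3). Leaving out none replicate 2 of day 30 gave 1 call for low against none there, and leaving out any other single array gave 0 in these comparisons. The module mean differed by 0.10 ± 0.08 for low and -0.03 ± 0.09 for int against none on day 10, and by 0.07 ± 0.06 for low, -0.02 ± 0.06 for int and -0.01 ± 0.06 for off on day 30. The int minus low difference was -0.13 ± 0.06 on day 10 and -0.09 ± 0.03 on day 30, with a positive difference in 21 and 20 of 93 members, beside medians over all genes of -0.001 and -0.004. Taken as the median over members on each array, it turned to 0.04 on day 10 and was -0.23 on day 30. The tests of whether the int or low effect changed between the days called 0 members (0.0902% and 0.0316% of all genes), with 2 and 3 at an unadjusted p under 0.05. The myeloid marker mean ran from 4.49 to 5.31 over the off arrays, and S100a8 was higher in off than in none (3.44, adjusted p = 0.0365).

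**Figure D5:**
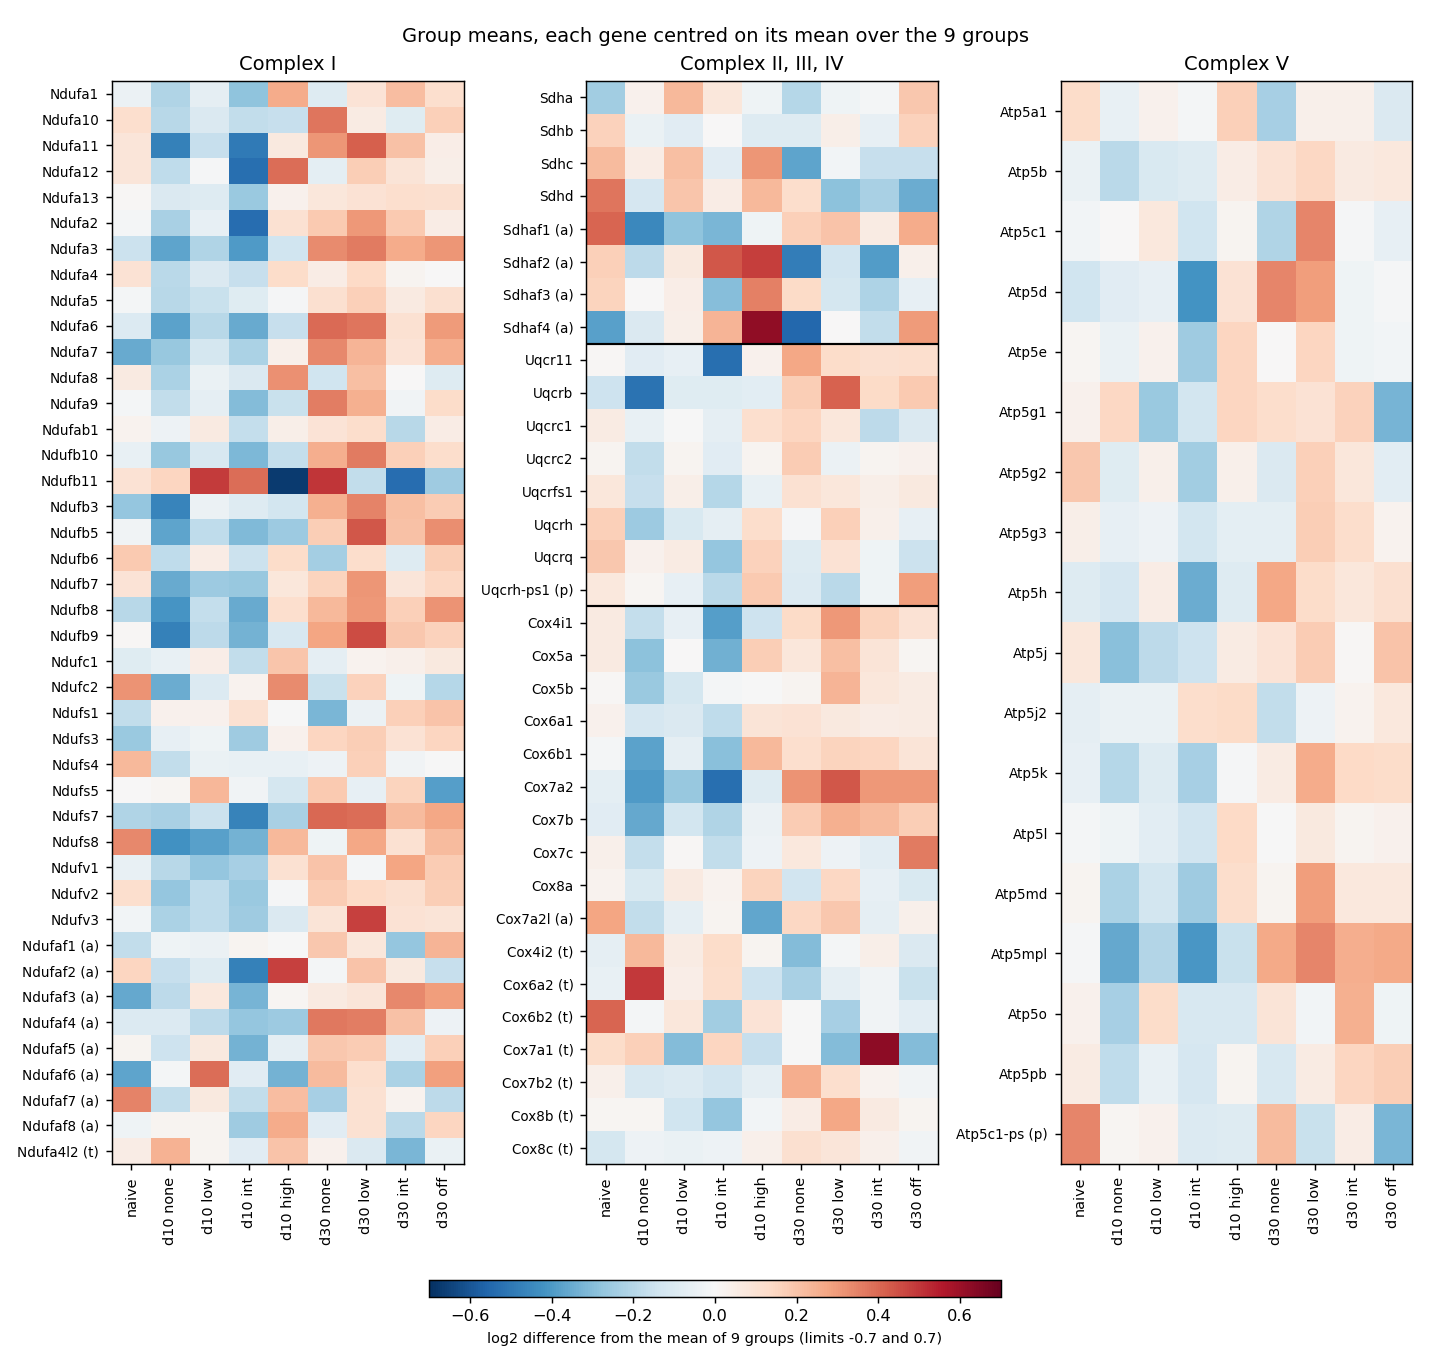
Mean log2 signal of each member in each of the 9 groups, centred on the gene's mean over the groups, by complex; (a) marks assembly factors, (t) isoforms of other tissues and (p) pseudogenes. Ndufa3, Ndufa6, Ndufs7, Cox7a2 and Atp5mpl are below their mean (blue) in the none and int groups of day 10 and above it (red) in the 4 groups of day 30.

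Across the 9 groups the members by the median moved more than all genes and less than bright genes. The median range of a member's group means was 0.55, against 0.44 for all genes and 0.73 for genes with a mean of at least 6, and 31 of 93 members (33.3%) were called in at least 1 of the 17 comparisons, against 16.3% of all genes. The largest ranges belonged to Sdhaf4 (1.18), Ndufb11 (1.17), Sdhaf2 (0.97), Cox7a2 (0.96), Ndufaf2 (0.95) and Uqcrb (0.93). Of these only Cox7a2 and Uqcrb were called in any comparison. Ndufb11, a membrane subunit of complex I, stood at 4.75, 7.49, 6.02, 6.38 and 6.18 on day 30 without antigen. The smallest ranges belonged to Cox8c (0.24), Sdhb (0.25), Atp5l (0.27), Cox6a1 (0.28), Cox8a (0.29) and Atp5g3 (0.30).

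The isoform pairs differed in what could be read. Of the 12 members with a mean under 4, most were isoforms of other tissues. Over the groups Cox4i2 had means of 3.31 to 3.84, Cox8b of 2.48 to 3.02, Cox8c of 2.83 to 3.07 and Ndufa4l2 of 2.51 to 3.07. Cox7a1, the muscle partner of Cox7a2, stood at 3.54, 6.42, 3.20, 3.50 and 3.18 on day 30 with int antigen, where replicate 2 alone was high. The c ring genes Atp5g1, Atp5g2 and Atp5g3 encode the same mature protein; Atp5g2 had group means of 9.88 to 10.31 and Atp5g3 of 8.94 to 9.24, while Atp5g1 lay at 2.99 to 3.48. Cox7a2l, which helps join complexes III and IV, had group means of 7.47 to 8.11 and was not called against naive cells in the high group (-0.64 ± 0.20, adjusted p = 0.0533 in limma).

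Landmark subunits chosen whatever their values mostly stayed uncalled. Ndufs1 and Ndufv1, core subunits of complex I, differed between the days by -0.34 ± 0.18, -0.07 ± 0.18 and 0.06 ± 0.19 and by 0.39 ± 0.16, 0.26 ± 0.16 and 0.51 ± 0.17 without, with low and with int antigen. Uqcrc1 and Uqcrfs1, a core protein and the Rieske iron-sulfur protein of complex III, differed by 0.20 ± 0.19, 0.08 ± 0.19 and -0.12 ± 0.20 and by 0.27 ± 0.19, 0.04 ± 0.19 and 0.24 ± 0.20. Ndufa4, a subunit now placed with complex IV, differed by 0.25 ± 0.11, 0.24 ± 0.11 and 0.18 ± 0.12, and Cox5b, a zinc-binding subunit of complex IV, by 0.28 ± 0.18, 0.37 ± 0.18 and 0.08 ± 0.19. None of these values was called in limma. Atpif1, the inhibitor of the ATP synthase, is no member by its symbol. It stood at 9.12, 8.54, 9.88, 9.83 and 9.23 in naive cells, at 7.91, 8.50, 8.37, 9.30 and 8.26 on day 10 without antigen, and at 9.78, 9.23, 9.24 and 8.62 with high antigen. It was lower in none than in naive cells (-0.85 ± 0.21, adjusted p = 0.0136 in limma) and higher in high than in none (0.75 ± 0.23, adjusted p = 0.0409), with overlapping arrays both times.

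Other genes of the pathway were counted in the same fits, in the order without, low and int for day 30 against day 10. Of 71 mitochondrial ribosomal proteins, which build the subunits that mitochondrial DNA encodes, 10, 2 and 1 were higher and 0 lower, with medians of 0.29, 0.15 and 0.22. Mrpl52 was called each time (0.81, 0.66 and 0.62). Of 36 assembly factors outside the prefixes, 4, 2 and 1 were higher and 0 lower, with medians of 0.05, -0.08 and -0.00. Uqcc3, an assembly factor of complex III, was called each time (1.06, 0.69 and 0.90), and Pet100, one of complex IV, without antigen and with low antigen (1.06 and 0.87). The 22 tricarboxylic acid cycle and pyruvate dehydrogenase genes had medians of -0.06, -0.07 and -0.17 and 1 call, Pdk1 without antigen (1.09, adjusted p = 0.0372 in limma). Of 65 cytosolic ribosomal proteins 10, 4 and 3 were higher (medians 0.09, 0.08 and 0.09), and of 49 proteasome subunits 3, 4 and 2 were higher and 0, 1 and 0 lower (medians 0.15, 0.15 and 0.13). With high antigen against none, Cycs, the cytochrome c that carries electrons between complexes III and IV, was higher (0.78, adjusted p = 0.0039), as were the adenine nucleotide carriers Slc25a4 (0.90, adjusted p = 0.00268) and Slc25a5 (0.67, adjusted p = 0.00211), which exchange ADP for the ATP made. Of the 20 biogenesis factors, Myc was lower with int antigen than without on day 10 (-1.14, adjusted p = 0.0145) and day 30 (-1.48, adjusted p = 0.000158), where 0 members were called. On day 10 it was also lower than in naive cells with int antigen (-1.79, adjusted p = 1.11e-05), where 3 members were called lower. With high antigen it was lower than in naive cells too (-1.14, adjusted p = 0.00479), where 0 members were called. Gabpb1 of the same list was higher with high antigen than without on day 10 (0.58, adjusted p = 0.0368 in limma), where 4 members were called higher. A link of Myc or Gabpb1 to the members was not tested.

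By Pearson's r of the 9 group means with the module mean, the 10 genes most like the module outside it were Sem1 (0.97), Cct6a, Ctsz, Nop10 and Mrps21 (0.96 each) and Tbca, Cox14, Sprr2j-ps, Gm9234 and Mrpl42 (0.95 each). These were picked as the highest of all genes, so the r only ranks them.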

How the data were processed

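RNA of sorted T cells was amplified and labelled for 43 arrays of 41345 probe sets, per the labels' protocols, from 0.1 to 30 ng of RNA. The values used are the log2 signals that the authors deposited. The log base was judged from their range (1.46 to 13.87), while how the authors corrected background, summarized probes and normalized arrays is not given in the sources used here. Of the probe sets, 23521 named 1 gene, 1814 several and 16010 none. A gene is its probe set with the highest mean among those naming only that gene, which gave 22180 genes. The table held 0 columns of no sample.

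All 9 groups were fitted in limma 3.58.1 (R 4.3.3) with lmFit, contrasts.fit and eBayes with a variance trend, in 17 comparisons and 2 tests of a changed dose effect, with Benjamini-Hochberg adjustment over all genes. Group and array means used Python 3.11.15, pandas 2.3.3 and numpy 2.4.6. Means of members over arrays carry a standard error and no test. On simulated data for int against none on day 10 (22180 genes, 50 changed genes of each size), the fit recovered 8% of log2 differences of 0.5, 72% of 1, 86% of 1.5 and 98% of 2, with 10 false calls. The changed genes were drawn from brighter genes only, all other group means were equal, and normal noise was drawn independently for each gene. These rates therefore need not hold for dim members or for real arrays, where members deviate together. The number of arrays limits the precision, and small differences are mostly missed.

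The members and lists were chosen with earlier results of these data known. Genes named with values are up to 8 called members per direction and comparison, landmark subunits and isoform groups whatever their values, the 6 largest and 6 smallest ranges of group means, and up to 4 called genes of each other list. Other called members, Sdhc and Sdhd were named after their values were seen. Alternatives were quantile normalization, centring on the array median, array weights, no variance trend, fitting only the groups compared, the mean of a gene's probe sets, a mean of at least 4, replicate number as a block, leaving out each array or 4 arrays together, and, for the module mean, structural subunits or the median over members. No 2 arrays were alike enough to be the same library, the highest r being 0.9893.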

Additional observations from a re-analysis of the deposited data

Results flagged for a closer look

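In 31 of 576 groups examined (5.38%), 1 array lay far from the others of its group by Dixon's gap test at 95%, and chance alone gives about 1 in 20. The values follow without explanation. In the module mean, day 10 low replicate 5 stood at 7.02 and the others at 7.11 to 7.13. Among members that the results turn on, day 10 high replicate 5 was low for Cox5a (8.78, the others 9.29 to 9.38) and for Ndufb7 (8.08, the others 8.85 to 8.94).

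Replicate 4 of day 10 low was low for Atp5a1 (9.08, the others 9.68 to 9.75), Cox4i1 (9.91, the others 10.15 to 10.22) and Cox7a2l (7.16, the others 7.86 to 8.01). Replicate 1 of that group was high for Ndufs8 (7.18, the others 6.98 to 7.03), and its replicate 5 for Ndufa4l2 (3.21, the others 2.67 to 2.79). In the day 10 int group, replicate 2 was low for Cox5b (7.84, the others 8.37 to 8.45) and Ndufa4l2 (2.51, the others 2.82 to 2.85), and replicate 4 was low for Atp5g2 (9.57, the others 9.96 to 10.00) and high for Cox6b1 (9.19, the others 8.99 to 9.01). In the day 10 none group, replicate 2 was low for Ndufv1 (5.73, the others 6.13 to 6.23) and Ndufa4l2 (2.53, the others 3.15 to 3.31).

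On day 30 with int antigen, replicate 2 was high for Cox7a1 (6.42, the others 3.18 to 3.54) and low for Atp5g2 (9.86, the others 10.25 to 10.35), and replicate 5 was high for Cox8b (3.21, the others 2.68 to 2.74). In the off group, replicate 4 was high for Atp5b (9.83, the others 9.57 to 9.64) and replicate 2 for Ndufb9 (9.67, the others 9.02 to 9.14). Day 30 low replicate 2 was high for Ndufs7 (7.19, the others 6.86 to 6.95). In naive cells, replicate 3 was low for Ndufb11 (4.55, the others 5.88 to 6.35) and replicate 5 high for Atp5g2 (10.71, the others 10.16 to 10.30).

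For Cox7b, replicate 1 of day 10 none was low (8.70, the others 9.55 to 9.84), as was replicate 5 of day 10 low (9.33, the others 9.74 to 9.89). Day 10 none replicate 3 was low for Ndufa10 (7.31, the others 7.86 to 7.97), and day 10 high replicate 3 for Ndufb10 (7.85, the others 8.18 to 8.21). Sdhc was low on day 30 in int replicate 5 (5.30, the others 6.69 to 7.19) and off replicate 3 (5.53, the others 6.65 to 7.06). Sdhd was high in naive replicate 4 (7.19, the others 5.66 to 5.99) and low in day 10 high replicate 2 (5.04, the others 6.19 to 6.39) and day 30 off replicate 4 (4.83, the others 5.51 to 5.57).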

How the results depend on the processing

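None of the 48 calls of members turned its direction under the alternatives run. Of these 48, 9 held when each array was left out in turn, 11 under every other setting and 8 under all: Cox7a2 in the 3 day comparisons, Ndufa3 without antigen and with low antigen, Ndufa6 and Ndufb9 without antigen, and Atp5e for high against int. Causes were not tested.

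Fitting only the groups compared gave 0 called members for day 10 none, day 30 none and day 10 int against naive cells and for high against none, 1 for day 10 int against low and for high against int, and 5 for the days without antigen. Centring on array medians gave 3 for day 30 none and 1 for day 10 int against naive, 2 for high against none and against int, and 3 and 2 for the days with low and int antigen. Quantile normalization gave 7 for day 10 int and 1 for high against naive, and 1 for high against none. Array weights gave 0 for day 30 none and 5 for day 10 int against naive, and 1 for day 10 int against low. Without a variance trend the counts were 3 for day 30 none and 1 for high against naive, and a mean of at least 4 gave 1 for the latter. Without 4 arrays the counts were 1 for none and 0 for int against naive, 7 for high against none, 1 for int against low and 25 for the days without antigen.

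Leaving out 1 array gave 1 to 6 for day 10 none, 0 to 6 for day 10 int, 0 to 2 for high and 1 to 4 for day 30 none against naive, 0 to 10 for high against none, 1 to 9 for high against int, 4 to 21, 2 to 9 and 2 to 6 for the days without, with low and with int antigen, 0 to 1 for day 30 low against none, and 0 in all other comparisons. The module mean taken as the median over members was 0.04 for day 10 int against low (the mean gave -0.13), -0.13 for day 30 int and -0.11 for off against none, -0.23 for day 30 int against low, and 0.38 and 0.42 for the days without and with low antigen. The day difference with low antigen was 0.12 after centring and 0.27 after quantile normalization.

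Replicate numbers did not pair the samples: in 0 of 36 pairs of groups did every same-numbered correlation pass 0.1, and their mean r was 0.00. With replicate number as a block, the counts were 12, 8 and 8 for the days without, with low and with int antigen, and all 19 counts stayed within 1.5 times the unblocked ones.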
